A study of Mus musculus with 6 samples.

Results

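The genes of major histocompatibility complex (MHC) class II presentation were examined in macrophages sorted from the hearts of legumain-deficient mice (Lgmn KO, here also the knockouts) and of wild-type mice (WT). They are H2-Aa, H2-Ab1, H2-Eb1, H2-DMa, H2-DMb1, H2-DMb2, H2-Oa, H2-Ob and Cd74, together with Ciita, which encodes their transcriptional activator. These 10 genes were chosen by symbol from the 34745 genes listed in the count table, and 8 of them were abundant enough to be tested among 12546 genes. H2-Oa and H2-Ob were not tested and are described by their counts.

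Messenger RNA was sequenced from macrophages of C57BL/6 mice aged 8 weeks, with 3 knockout libraries (replicates 1, 2 and 4) and 3 WT libraries (replicates 1, 2 and 3). Cells from digested hearts were stained for CD45 (leukocytes), CD64 (macrophages) and CD11b (myeloid cells) for sorting. The series design places all samples after myocardial infarction, while the labels name both coronary ligation and a sham operation without assigning either to a mouse. How the Lgmn allele was made, and whether each library came from its own animal, is not stated in the labels, and p-values therefore reflect only the spread among these libraries, which may be technical.

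Class II molecules are pairs of an alpha and a beta chain that carry peptides from the lysosome to the cell surface, where helper T cells read them. The invariant chain, encoded by Cd74, fills the groove of a new pair until lysosomal proteases cut it away, and H2-DM then exchanges its last fragment for a peptide, a step that H2-DO restrains. Legumain is itself a lysosomal protease. Ciita does not bind DNA directly but is recruited to class II promoters by factors that sit on their X and Y boxes, and macrophages switch it on in response to interferon-gamma.

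Total counts per library lay between 19546253 and 24086976. Levels are given as CPM (counts scaled to a common library size with TMM factors), and 3 counts, the upper limit that a count of 0 allows in a library, correspond to 0.125 to 0.153 CPM before that scaling, counting error only. Lgmn stood at 83.5 ± 4.91 CPM in the knockouts and 2391 ± 263 CPM in WT (SD, n = 3 each), so the labels match the targeted gene. Markers of macrophages were abundant in every library, with summed levels of 19681 to 23052 CPM in the knockouts and 20999 to 22880 CPM in WT over 7 genes, of which Lyz2 made up 73.3%. Of these 7 genes 6 had a negative log2 fold change and 5 an unadjusted p below 0.05, with 0 called by edgeR and 1, Csf1r, by DESeq2. Csf1r, the receptor for the macrophage growth factor, was at 550 ± 61.8 CPM in the knockouts and 922 ± 218 CPM in WT, and Fcgr1, which encodes the sorting marker CD64, at 95.8 ± 24.2 and 203 ± 99.7 CPM (SD, n = 3 each), both named after their values were seen. Across all tested genes, 0.789% were called at an adjusted p below 0.05 (edgeR quasi-likelihood fit, Benjamini-Hochberg), 0.478% as lower in the knockouts and 0.311% as higher. WT replicate 1 stood nearest to the knockout libraries in every tested class II gene, so results are also given by library.

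The Y box is an ATTGG (an inverted CCAAT), and the X box lies before it. RefSeq promoter windows (build GRCm38.p6, 250 bases before to 50 after the start) matched 7 of the 10 genes, and H2-Ab1, Cd74 and Ciita had no entry. Stretches are shown for H2-Aa and H2-Eb1, which were lower in the knockouts, and for the scarcely expressed H2-Ob, to compare the spacing of the boxes. Each runs 5′ to 3′ on the gene's strand, and the capitals mark an AAC in the X box region and the TGATTGG of the Y box.
H2-Aa: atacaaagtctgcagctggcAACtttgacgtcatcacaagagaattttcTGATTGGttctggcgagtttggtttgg
H2-Eb1: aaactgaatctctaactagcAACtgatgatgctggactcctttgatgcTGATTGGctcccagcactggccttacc
H2-Ob: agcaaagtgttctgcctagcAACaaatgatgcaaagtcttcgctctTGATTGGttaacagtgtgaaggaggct

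These stretches lie at chr17:34287847-34287922 on the minus strand (H2-Aa), chr17:34305758-34305832 on the plus strand (H2-Eb1) and chr17:34238800-34238872 on the plus strand (H2-Ob). The marked elements are 26, 25 and 23 bases apart, and the Y box ends 43, 54 and 52 bases before the RefSeq start. H2-DMb1, H2-DMb2 and H2-Oa also held AAC followed by TGATTGG, with 26 bases between them in each. Within 76 bases around these elements, H2-DMb1 and H2-DMb2 were identical at 66.

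That pair of elements, AAC and TGATTGG with 23 to 26 bases between them, was written after these promoters had been read, so its presence in them is a description. Searched on both strands, it occurred in 0.46% of 32851 RefSeq windows of the same length. ATTGG alone occurred in 37.4% of all windows and in 7 of the 8 windows of class II genes (H2-DMa has 2 windows). A stricter X box core, CCNNGNNAC followed on the same strand by ATTGG starting at most 60 bases after it, was in 2.73% of all windows and in those of H2-DMb1, H2-Oa and H2-Ob. Both H2-DMa windows lack the AAC and TGATTGG pair. Their starts lie 3291 and 5977 bases from the GENCODE M21 gene start. These starts, at 34122832 and 34125518, also lie before the H2-DMa start deposited with the counts, 34135182. The bases next to that deposited start were not searched, so the lack of the pair applies to these windows only.

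The classical class II genes and the invariant chain fell 10.7- to 12.7-fold in the knockouts. H2-Aa, H2-Ab1, H2-Eb1 and Cd74, 4 of the 8 tested genes, passed the edgeR test across all genes, against 0.478% of all tested genes in that direction. All 8 had a negative log2 fold change, as had 50.4% of all tested genes. All 8 also had an unadjusted p below 0.05, found for 17.5% of all tested genes in either direction and for 10.6% with a negative sign. Their median was -3.44, and that of all tested genes was -0.002. In all 8 the highest knockout library lay below the lowest WT library, which held for 13% of all tested genes. H2-DMb2, counted among the 8 throughout, passed the low-count filter only through its WT libraries, so a lower level in the knockouts was favoured in advance for it. In bulk RNA, fewer cells that carry these transcripts and less transcript per cell cannot be told apart.

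**Figure D1:**
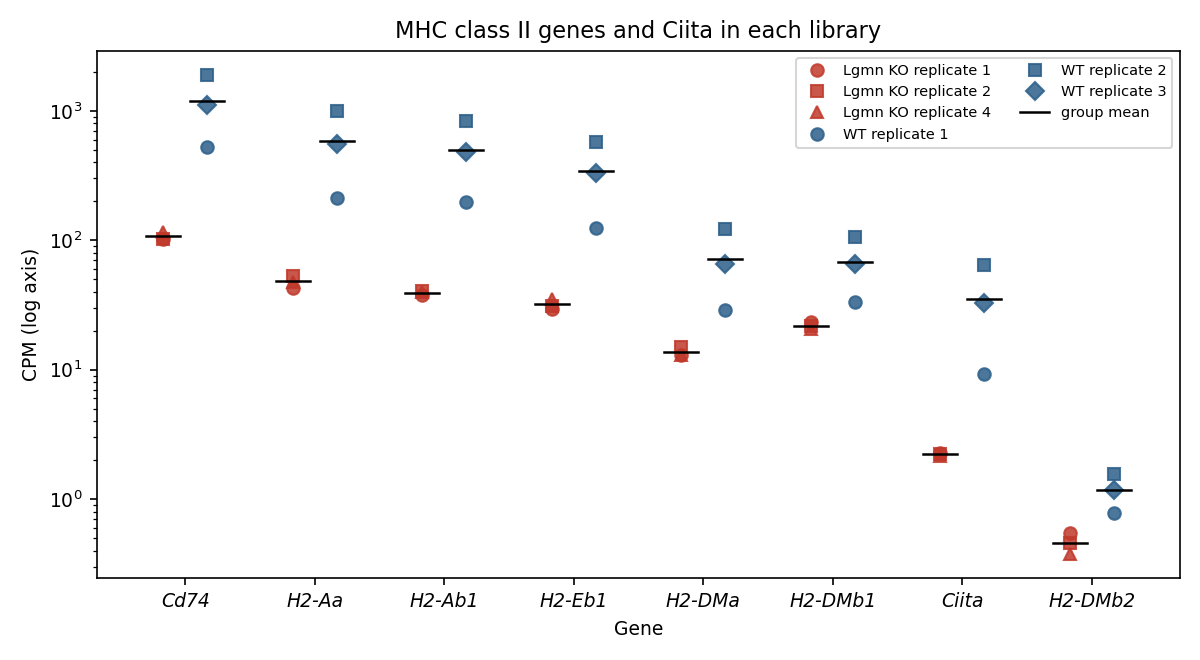
CPM (log axis) of the 8 tested genes in each of the 3 Lgmn KO (red) and 3 WT (blue) libraries, with black bars for group means. Knockout points lie close together below all WT points, and WT replicates 1, 3 and 2 stand in that order for each gene.

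H2-Aa encodes the alpha chain of H2-A, the class II molecule that C57BL/6 mice display, and occupies chromosome 17 from 34282744 to 34287827, minus strand (positions as in the table, read as GRCm38). It was at 43.0, 53.2 and 48.0 CPM in Lgmn KO replicates 1, 2 and 4 and at 213, 989 and 557 CPM in WT replicates 1, 2 and 3. The lowest WT library was thus 4.01-fold above the highest knockout library. H2-Aa fell by 3.61 on the log2 scale (SE 0.51; edgeR, adjusted p = 0.0369), a fitted fold of 12.2.

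H2-Ab1, which encodes the beta chain of H2-A, lies on chromosome 17 from 34263209 to 34269418 on the plus strand. Its knockout libraries held 37.5, 40.8 and 39.8 CPM and its WT libraries 197, 831 and 477 CPM. The knockout values differed from each other by only 1.09-fold, whereas the WT values spanned 4.23-fold. H2-Ab1 fell by 3.67 on the log2 scale (SE 0.48; edgeR, adjusted p = 0.0277).

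H2-Eb1 encodes the beta chain of H2-E, whose alpha chain gene is a pseudogene in this strain, and lies on chromosome 17 from 34305877 to 34316199 on the plus strand. The pseudogene, H2-Ea-ps, had 0 counts in all 6 libraries. H2-Eb1 transcripts were present all the same, at 29.5, 31.3 and 35.2 CPM in the knockouts and 124, 572 and 333 CPM in WT. H2-Eb1 fell by 3.42 on the log2 scale (SE 0.50; edgeR, adjusted p = 0.0391). Its paralog H2-Eb2 was too low to test, with 3, 3 and 8 counts in the knockouts and 2, 8 and 14 in WT, ranges that overlap.

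Cd74, on chromosome 18, was the most abundant of the 10 genes in every library on the length-scaled FPKM values. It was at 102, 103 and 117 CPM in the knockouts and 521, 1902 and 1119 CPM in WT. As for the H2-A genes, WT replicate 2 was highest and WT replicate 1 lowest, and the groups did not overlap. Cd74 fell by 3.46 on the log2 scale (SE 0.43; edgeR, adjusted p = 0.0263), an 11.0-fold difference.

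These 4 calls depended on single libraries. Without Lgmn KO replicate 1, 2 or 4, 0 of the 8 genes were called by edgeR, although all 8 kept an unadjusted p below 0.05, and the shares of all tested genes called lower were 0.0934%, 0.0234% and 0.109%. Without WT replicate 3 it was likewise 0 of 8 (8 at an unadjusted p below 0.05), against 0.0549% of all genes. Without WT replicate 1, 7 were called against 3.67%, with a median of -3.82, and without WT replicate 2, 4 were called against 0.181%, with a median of -2.89. DESeq2 called 7 (background 3.64%), limma-voom with sample quality weights 6 (1.76%), edgeR with DESeq2 size factors 4 (0.407%) and edgeR without the low-count filter 7 (1.25%). At an adjusted p below 0.1, edgeR called 7 of the 8 (2.58%). The log2 fold changes of the 4 genes in the fits that leave out 1 library ran from -4.05 for H2-Ab1 to -2.84 for H2-Eb1.

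Ciita had the most negative fitted log2 fold change of the 8, but it missed the threshold. It lies on chromosome 16 from 10488178 to 10527564 on the plus strand. Counts were 46, 44 and 46 in the knockouts and 189, 1387 and 788 in WT, which correspond to 2.27, 2.25 and 2.17 CPM and to 9.20, 64.2 and 32.9 CPM. The knockout libraries were nearly equal, and the WT libraries spanned 6.98-fold, the widest range of the tested genes. The log2 fold change was -3.99 (SE 0.67; edgeR, adjusted p = 0.0519). Without WT replicate 1 it was called at -4.44, and DESeq2's Wald test and edgeR without a filter on low counts called it as well. In GENCODE M21, whose span for Ciita (10480059 to 10528418) is longer than the deposited one, an exon of Ciita overlaps one of Dexi on the opposite strand. Whether that exon was counted was not tested. No source used here says whether counting used strand, so reads of Ciita and Dexi cannot be told apart there.

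H2-DM, the peptide exchanger, is built from H2-DMa and one of a pair of beta chains. H2-DMa (chromosome 17 from 34135182 to 34139101, plus strand) was at 13.1, 14.9 and 13.1 CPM in the knockouts and 29.2, 121 and 65.7 CPM in WT. H2-DMb1 (chromosome 17 from 34153072 to 34160230, plus strand) was at 23.2, 21.6 and 20.5 CPM in the knockouts and 33.1, 106 and 65.4 CPM in WT. For both genes the groups did not overlap, but WT replicate 1 was only 1.95-fold (H2-DMa) and 1.42-fold (H2-DMb1) above the highest knockout library. The log2 fold changes were -2.40 (SE 0.46) for H2-DMa and -1.64 (SE 0.37) for H2-DMb1 (edgeR, adjusted p = 0.0644 and 0.0844), so neither passed. Both were called without WT replicate 1, by DESeq2, by limma-voom with sample quality weights and by edgeR without the filter. In GENCODE M21, where H2-DMa starts at 34119541, an exon of H2-DMa overlaps one of Brd2 on the opposite strand. The positions deposited with the counts do not overlap, since Brd2 ends there at 34122634 and H2-DMa starts at 34135182. Brd2 itself was at 238 ± 12.8 CPM in the knockouts and 216 ± 28.6 CPM in WT (SD, n = 3 each).

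H2-DMb2, the other beta chain of H2-DM, was far scarcer. It lies on chromosome 17 from 34143307 to 34151553 on the plus strand. It had 11, 9 and 8 counts in the knockouts and 16, 34 and 28 in WT, and its log2 fold change of -1.34 did not pass (SE 0.40; edgeR, adjusted p = 0.148). H2-DMb1 and H2-DMb2 share sequence: 21.2% of the 50-base words in H2-DMb2 transcripts also occur in H2-DMb1 transcripts. With counts this low beside an abundant copy, the H2-DMb2 values are uncertain. H2-DMb2 also passed the low-count filter only through its WT libraries, which favours a lower level in the knockouts.

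H2-DO, the antagonist of H2-DM known mainly from B cells, was at the limit of detection. H2-Oa, its alpha chain (chromosome 17 from 34092340 to 34095234, plus strand), had 0, 1 and 0 counts in the knockouts and 6, 8 and 3 in WT. Pooled by group these are 1 and 17 counts, a ratio of WT to Lgmn KO of 15.8 with an exact 95% interval of 2.48 to 662 that covers counting error only. H2-Ob, its beta chain (chromosome 17 from 34238903 to 34245907, plus strand), had 15, 2 and 6 counts in the knockouts and 2, 4 and 18 in WT. Its pooled counts of 23 and 24 gave a ratio of 0.972 (0.525 to 1.80), and its libraries overlapped widely. H2-Ob was the 1 gene of the 10 whose groups overlapped. Exons of H2-Oa overlap another gene on the opposite strand.

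The share of the WT level that remained was lowest for Ciita and highest, among the tested genes, for the H2-DM beta chains. The knockouts kept 7.84% of the WT mean for H2-Ab1, 8.19% for H2-Aa, 9.07% for Cd74, 9.32% for H2-Eb1 and 6.29% for Ciita. The corresponding shares were 19.0% for H2-DMa, 32.0% for H2-DMb1 and 39.2% for H2-DMb2. WT replicate 1 already stood at 36.3% of the WT mean for H2-Aa and 44.2% for Cd74, while WT replicate 2 was at 169% and 161%.

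Levels were compared between genes on FPKM values, which are scaled to gene length. The mean FPKM in WT ran from 590 ± 342 for Cd74 through 290 ± 188 for H2-Eb1, 229 ± 151 for H2-Aa and 213 ± 134 for H2-Ab1 to 41.0 ± 21.6 for H2-DMb1 and 32.7 ± 20.9 for H2-DMa (SD, n = 3 each). Ciita followed at 6.74 ± 5.22, and H2-DMb2, H2-Oa and H2-Ob were below 1 in each WT library. The WT ranges of Cd74, H2-Eb1, H2-Aa and H2-Ab1 overlapped from each gene to the next, as did those of H2-DMb1 and H2-DMa, although Cd74 was above H2-Eb1 in all 3 libraries. In the knockouts the first 8 genes stood in the same order, from 53.2 ± 3.87 FPKM for Cd74 to 0.181 ± 0.033 FPKM for H2-DMb2 (SD, n = 3 each). There H2-DMb1, at 13.1 ± 0.862 FPKM, came close to H2-Ab1, at 16.6 ± 0.760 FPKM, without overlap between their libraries.

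Ratios were then taken within each library. The FPKM ratio of H2-Aa to H2-Ab1, the chains of 1 molecule, was 1.12 ± 0.0723 in the knockouts and 1.05 ± 0.0516 in WT (SD, n = 3 each; exact permutation test, two-sided p = 0.4, and 0.48 adjusted over 6 ratios), with overlapping ranges. Cd74 to H2-Ab1 was 3.20 ± 0.240 in the knockouts and 2.85 ± 0.229 in WT, and Ciita to H2-Ab1 was 0.0254 ± 0.00150 and 0.0288 ± 0.00705 (SD, n = 3 each; exact permutation p = 0.2 and 0.6). Both ratios overlap between the groups, although the level of H2-Ab1 itself differed 12.7-fold.

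The other 3 ratios separated the groups. The FPKM ratio of H2-DMb1 to H2-Ab1 was 0.881, 0.751 and 0.732 in the knockouts and 0.239, 0.180 and 0.195 in WT. All knockout libraries were above all WT libraries, with an exact permutation p of 0.1 (0.2 adjusted over 6 ratios), the smallest that 3 against 3 libraries can give. H2-DMa to H2-DMb1 was 0.423, 0.521 and 0.479 in the knockouts and 0.663, 0.864 and 0.756 in WT, again without overlap (exact permutation p = 0.1). H2-Eb1 to H2-Ab1 was 1.57, 1.52 and 1.76 in the knockouts and 1.26, 1.37 and 1.39 in WT, also without overlap (exact permutation p = 0.1). No ratio could pass 0.05 in a design of this size.

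**Figure D2:**
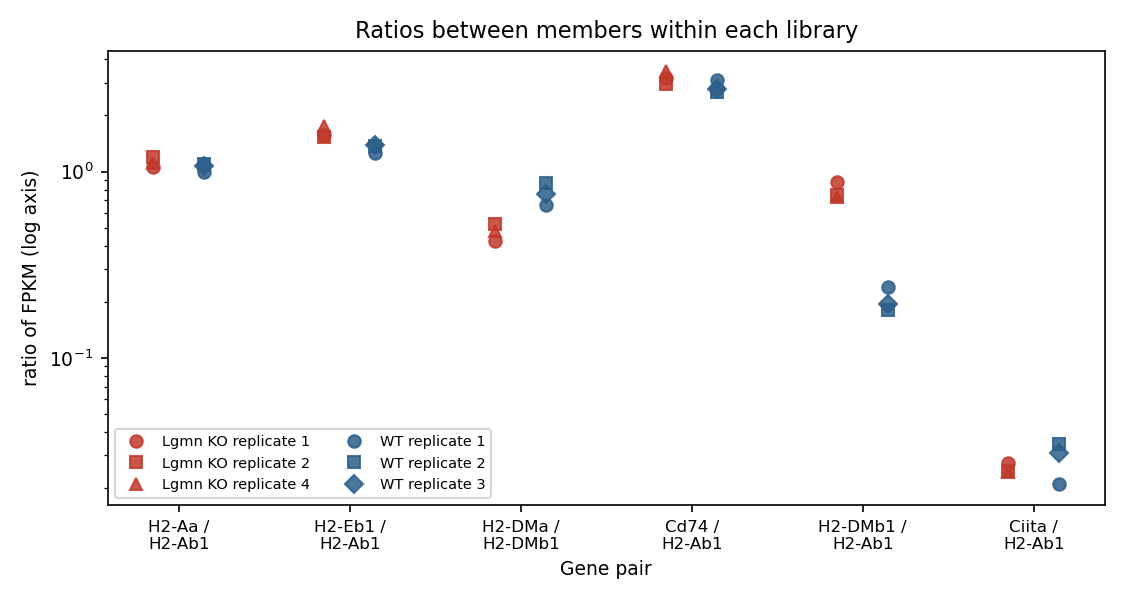
FPKM ratios (log axis) of 6 pairs of class II genes within each Lgmn KO (red) and WT (blue) library. H2-Aa to H2-Ab1 stays near 1 in all 6 libraries, and H2-DMb1 to H2-Ab1 is 0.732 to 0.881 in the knockouts and 0.180 to 0.239 in WT.

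The class II genes varied widely among the WT libraries. The SD of log2 CPM (prior count 2) had a median over the 8 tested genes of 0.11 in the knockouts and 1.04 in WT, where the medians over all tested genes were 0.14 and 0.15. It was larger in WT than in the knockouts for all 8, and for 54% of all tested genes. WT replicate 2 was 6.98-fold above WT replicate 1 for Ciita, 4.64-fold for H2-Aa, 3.65-fold for Cd74, 3.19-fold for H2-DMb1 and 2.02-fold for H2-DMb2. A ratio at least as large as the smallest of these was found for 4.65% of all tested genes, and one above 3 for 1.74%. All 8 genes stood in the order WT replicate 1, 3, 2, as did 22.7% of all tested genes.

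The genes whose pattern was most like that of the 8 over the 6 libraries were Ccl9, Dpysl2, Cybb, Hfe and Mov10. Likeness was Pearson's r with the mean of the centred log2 CPM of the 8 genes, taken over 9180 eligible genes, and it was 0.998 for Ccl9, 0.997 for Dpysl2, 0.995 for Cybb and 0.994 for Hfe and Mov10. The 6 libraries fall into 2 genotypes and share their depth and scaling, so r is only a description. The pattern used for the choice is low in the knockouts, so a lower level there was favoured in advance for these genes. Their levels, fold changes and calls are therefore descriptions too. Ccl9, a chemokine, was at 15.6, 19.8 and 16.7 CPM in the knockouts and 49.8, 199 and 110 CPM in WT. Cybb, the catalytic subunit of the phagocyte oxidase, was at 711 ± 31.7 CPM in the knockouts and 1293 ± 263 CPM in WT (SD, n = 3 each). Its log2 fold change was -0.86. Both passed the edgeR test narrowly (adjusted p = 0.0486 each) and lost their call without any 1 library other than WT replicate 1, and with DESeq2 size factors in edgeR (adjusted p = 0.0504 for Ccl9 and 0.0511 for Cybb). Hfe, whose class I-like product regulates iron uptake, had a log2 fold change of -1.70, Mov10, an RNA helicase, of -0.94 and Dpysl2, a cytoskeletal regulator, of -0.87, and none of these passed (edgeR, adjusted p = 0.0555, 0.0589 and 0.0575).

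Transcription factors that occupy class II promoters were then examined. Of 13 tested genes of this list, 0 were called by edgeR (3 had an unadjusted p below 0.05, against 17.5% of all tested genes, and DESeq2 called 1), and the median log2 fold change was -0.01. Spi1 (PU.1), a master regulator of myeloid cells, was at 270 ± 5.91 CPM in the knockouts and 256 ± 13.4 CPM in WT, and Irf8 was at 193 ± 13.9 and 203 ± 17.7 CPM (SD, n = 3 each). Among genes chosen after their values were seen, Rfx5, a subunit of the X box factor RFX, was at 3.62 ± 0.134 CPM in the knockouts and 5.69 ± 1.24 CPM in WT (SD, n = 3 each; log2 fold change -0.65, edgeR adjusted p = 0.158). Irf4, also chosen so and the gene that DESeq2 called, had a log2 fold change of -2.06 (edgeR, adjusted p = 0.0837). Creb1, chosen so as well, had an unadjusted p below 0.05 in the other direction (log2 fold change 0.27, edgeR adjusted p = 0.260).

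Genes of the interferon-gamma axis upstream of Ciita were uneven. Of 15 tested genes of this list 0 were called by edgeR, 6 had an unadjusted p below 0.05 and the median log2 fold change was -0.19. Ifng, the cytokine itself, had 0 counts in all knockout libraries and 3, 16 and 6 in WT. That is the WT order of the class II genes, which 22.7% of all tested genes had. Ifng was not tested by edgeR, and DESeq2 called it and Irf1 among 3 genes of the list. The abundant members Jak1 and Tgfb1 had log2 fold changes of -0.02 and 0.02. Chosen after its values were seen, Irf1, a transcription factor that interferon-gamma induces, was at 12.0, 13.1 and 18.6 CPM in the knockouts and 37.8, 158 and 80.6 CPM in WT. All its knockout libraries were below all WT libraries, and its log2 fold change was -2.66 (edgeR, adjusted p = 0.0575). Ifngr2, a receptor chain chosen in the same way, had an unadjusted p below 0.05 in the other direction (log2 fold change 0.22, edgeR adjusted p = 0.148).

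Genes for lysosomal processing and for trafficking had medians near 0. Of 11 tested processing genes 0 were called by edgeR (3 had an unadjusted p below 0.05, and DESeq2 called 1), and the median log2 fold change was 0.03. Ctsd and Ctsb, abundant cathepsins, had log2 fold changes of 0.16 and 0.03. Ctss, the protease that makes the last cuts in the invariant chain, was at 9231 ± 914 CPM in the knockouts and 12108 ± 2160 CPM in WT, and Ifi30, the thiol reductase that opens disulfide bonds of antigens and the gene that DESeq2 called, was at 313 ± 28.4 and 470 ± 51.3 CPM (SD, n = 3 each; edgeR adjusted p = 0.207 and 0.0555). Ctsl, another cathepsin with an unadjusted p below 0.05, went the other way. It was at 6074, 2346 and 2501 CPM in the knockouts and 1851, 2131 and 2120 CPM in WT (log2 fold change 0.84, edgeR adjusted p = 0.269). These 3 genes were named after their values were seen. Of 10 tested trafficking and turnover genes 0 were called by edgeR or DESeq2, 2 had an unadjusted p below 0.05 and the median was 0.08. Cd9 and Cd63, tetraspanins of class II compartments, had log2 fold changes of 0.19 and 0.23. The 2 with an unadjusted p below 0.05 were Cd63 and, named after its values were seen, Arl8b at 0.21, both higher in the knockouts. March1, the ubiquitin ligase that removes class II from the surface, was named after its values were seen and stood at 28.1 ± 3.67 CPM in the knockouts and 43.0 ± 18.2 CPM in WT (SD, n = 3 each).

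Costimulatory ligands and class I presentation genes were negative in sign, with calls by DESeq2 but not by edgeR. All 6 tested costimulation genes were negative in sign (median log2 fold change -0.58), and 0 were called by edgeR (2 had an unadjusted p below 0.05, and DESeq2 called 2). Cd274 (PD-L1) had a log2 fold change of -0.52 and Cd86 one of -0.48. All 14 tested class I genes were negative as well, with a median of -0.67, 0 called by edgeR, 13 at an unadjusted p below 0.05 and 10 called by DESeq2. The abundant H2-D1 and B2m were at -0.21 and -0.45. Over all tested genes, the shares with a negative sign and with an unadjusted p below 0.05 were 50.4% and 17.5%. Nlrc5, the class I counterpart of Ciita and named after its values were seen, was at 27.4 ± 5.82 CPM in the knockouts and 68.5 ± 23.7 CPM in WT (SD, n = 3 each). Its log2 fold change was -1.32 (edgeR, adjusted p = 0.069).

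**Figure D3:**
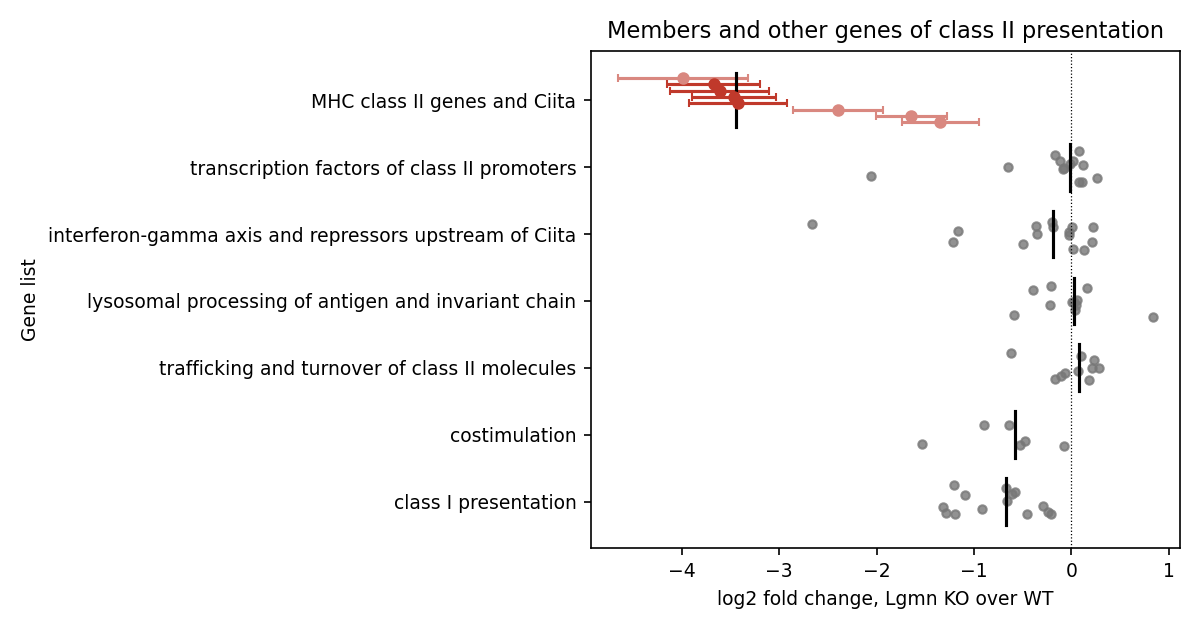
Log2 fold change between the knockouts and WT (negative where lower in the knockouts) for the 8 tested class II genes (red, with standard errors; dark where the adjusted p is below 0.05) and for the tested genes of 6 related lists (grey), with black bars for medians. The class II median is -3.44, and those of the other lists lie between -0.67 and 0.08.

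Of the 10 genes 8 lie together on chromosome 17, in a segment of 223860 bases from 34092340 to 34316199. The classical genes H2-Ab1, H2-Aa and H2-Eb1 are at its far end and the H2-DM genes nearer to H2-Oa. The segment holds 5 other tested genes, of which 0 were called by edgeR, 4 had an unadjusted p below 0.05 and DESeq2 called 4. These 4 are Psmb9, Tap1, Psmb8 and Tap2, genes of class I peptide supply, with log2 fold changes of -1.29, -1.20, -0.92 and -0.66. Brd2, a chromatin reader that lies between H2-Oa and H2-DMa, was at 0.14 (edgeR, adjusted p = 0.548). Cd74 and Ciita, on other chromosomes, had log2 fold changes near those of the classical genes of the segment.

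**Figure D4:**
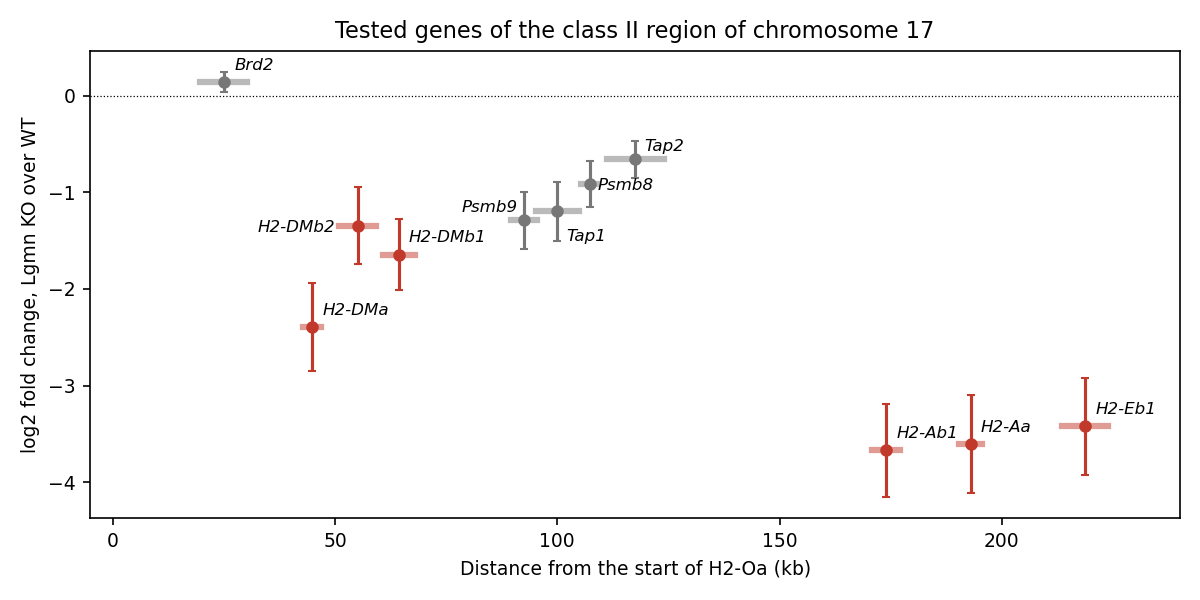
Log2 fold change between the knockouts and WT (negative where lower in the knockouts) (points, with standard errors) of tested genes against their distance in kb from the start of H2-Oa on chromosome 17, with horizontal bars for gene spans (class II genes red, others grey). H2-Ab1, H2-Aa and H2-Eb1 lie between -3.67 and -3.42, and Brd2 at 0.14.

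Other cell types that carry class II were looked for by their markers. Summed over the 10 genes, class II transcripts were at 251, 268 and 276 CPM in the knockouts and 1128, 4587 and 2653 CPM in WT. The 12 dendritic cell markers, of which 2 were at 0 in every library, summed to 12.4, 24.1 and 18.7 CPM in the knockouts and 26.6, 44.0 and 29.5 CPM in WT. The dendritic cell sum was thus lower in all knockout libraries, and WT replicate 2 was highest as for class II. Fscn1 made up 61.3% of that sum. Without Fscn1 it was 5.23, 7.05 and 7.54 CPM in the knockouts and 7.54, 19.3 and 13.4 CPM in WT. Lgmn KO replicate 4 and WT replicate 1 were then nearly level. Of 7 tested dendritic cell markers 1 was called by edgeR: Zbtb46, a transcription factor of classical dendritic cells, had 6 counts in each knockout library and 28, 30 and 30 in WT. Of the 7, 6 had a negative sign and 4 an unadjusted p below 0.05, and DESeq2 called 1. Named after their values were seen, Clec9a, a receptor of cross-presenting dendritic cells, was at 0.828, 4.31 and 2.92 CPM in WT replicates 1, 2 and 3, and Ccr7, a receptor of migrating dendritic cells, at 2.53, 8.43 and 5.25 CPM. Both thus stood in the WT order of class II, as did 22.7% of all tested genes, and their log2 fold changes were -1.68 and -1.32 (edgeR, adjusted p = 0.189 and 0.213). The tested markers Fscn1, Batf3, Zbtb46, Dpp4 and Cd209a stood in other WT orders, and Cd209a had a positive sign. The Zbtb46 call ended without any 1 library other than WT replicate 1. Zbtb46 passed the low-count filter only through its WT libraries, which favours a lower level in the knockouts. The part of dendritic cells in the class II values was not tested.

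B cell markers overlapped between the groups. Their 13 genes summed to 15.3, 11.1 and 13.8 CPM in the knockouts and 9.05, 12.7 and 26.4 CPM in WT, and 0 of 4 tested were called by edgeR (0 at an unadjusted p below 0.05, and 0 by DESeq2). Most of that sum was Ighm. Markers of T and NK cells, which make interferon-gamma, summed to 0.888, 1.38 and 1.60 CPM in the knockouts and 5.70, 13.6 and 14.3 CPM in WT over 12 genes, 1 of them at 0 throughout. All 4 tested genes of this list had an unadjusted p below 0.05 and knockout libraries below all WT libraries, and DESeq2 called 8 genes of the list as lower. Of the 4 tested, Cd3g, Lck and Trac passed the low-count filter only through their WT libraries. A lower level in the knockouts was thus favoured in advance for them. Trac, a T cell receptor chain, was the 1 that edgeR called, with 1, 2 and 1 counts in the knockouts and 12, 29 and 25 in WT, and its call ended without any 1 library other than WT replicate 1. The sum of these markers was lowest in WT replicate 1 among the WT libraries, as for class II, but highest in WT replicate 3 and not 2. Klrb1c, named after its values were seen, was highest in WT replicate 1, with 18, 8 and 8 counts in WT replicates 1, 2 and 3. The part of T and NK cells in the class II values was not tested.

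Monocyte and recruited macrophage markers summed to 622 to 824 CPM in the knockouts and 789 to 995 CPM in WT over 6 genes, and resident macrophage markers to 22.1 to 32.1 and 19.0 to 31.6 CPM over 6 genes, so both sums overlapped between the groups. Within the first list Ccr2, the chemokine receptor of recruited cells and named after its values were seen, was at 6.42, 3.88 and 4.34 CPM in the knockouts and 11.4, 67.2 and 35.6 CPM in WT. Its WT libraries stood in the order of the class II genes, as did those of 22.7% of all tested genes, and its log2 fold change was -2.96 (edgeR, adjusted p = 0.0727). The other tested genes of that list stood in other WT orders. Ly6c2, a marker of inflammatory monocytes, was at 6.05 ± 6.21 CPM in the knockouts and 19.6 ± 1.96 CPM in WT (SD, n = 3 each), without overlap. Of 5 tested genes of that list 0 were called by edgeR, 2 had an unadjusted p below 0.05 and DESeq2 called 1. Of the resident markers Lyve1 was at 0 in all 6 libraries, and of 3 tested 0 were called by edgeR, 1 had an unadjusted p below 0.05 and DESeq2 called 1 as higher. That gene, Vsig4, a complement receptor of resident macrophages, was at 2.96, 5.06 and 4.71 CPM in the knockouts and 1.41, 1.94 and 0.834 CPM in WT. Its log2 fold change was 1.61 (edgeR, adjusted p = 0.0841), and it and Ly6c2 were named after their values were seen. The part of a different mix of macrophages in the class II values was not tested.

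Markers of other heart cells were looked at in the same way. Neutrophil markers summed to 92.0, 106 and 118 CPM in the knockouts and 161, 273 and 194 CPM in WT over 6 genes, and fibroblast markers to 45.4, 116 and 101 CPM and 154, 180 and 132 CPM over 5 genes, so both sums were lower in all knockout libraries. The neutrophil sum was 87.7% Mmp8, a collagenase, and without that gene it was 21.3, 19.5 and 20.3 CPM in the knockouts and 18.2 and 16.6 CPM in WT replicates 2 and 3, with WT replicate 1 between the knockout libraries. None of these genes was called by edgeR (0 of 5 tested neutrophil markers with 1 at an unadjusted p below 0.05, 0 of 5 fibroblast markers with 4), and DESeq2 called 1 in each list. Endothelial markers (23.7 to 41.7 and 36.3 to 42.0 CPM over 7 genes, 2 of them at 0) and cardiomyocyte markers (2.37 to 3.54 and 2.46 to 3.50 CPM over 5 genes) overlapped between the groups. The endothelial sum, however, was 83.3% Kdr. Without Kdr it was 2.22, 1.84 and 1.84 CPM in the knockouts and 12.2, 9.77 and 8.34 CPM in WT, mostly Flt1, and lower in all knockout libraries. Of 3 tested endothelial markers 2 had an unadjusted p below 0.05. Pecam1, 1 of these 2 and named after its values were seen, had 3, 8 and 3 counts in the knockouts and 17, 38 and 35 in WT. It passed the low-count filter only through its WT libraries, which favours a lower level in the knockouts. DESeq2 called 2 markers as lower and edgeR called 1. That gene, Flt1, a receptor for vascular growth factors, fell by 2.79 on the log2 scale (edgeR, adjusted p = 0.015). It was not called without Lgmn KO replicate 2 (-2.64) or replicate 4 (-2.82). Its WT libraries, at 11.1, 7.41 and 6.38 CPM for replicates 1, 2 and 3, did not stand in the order of class II. The part of these cells in the class II values was not tested.

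**Figure D5:**
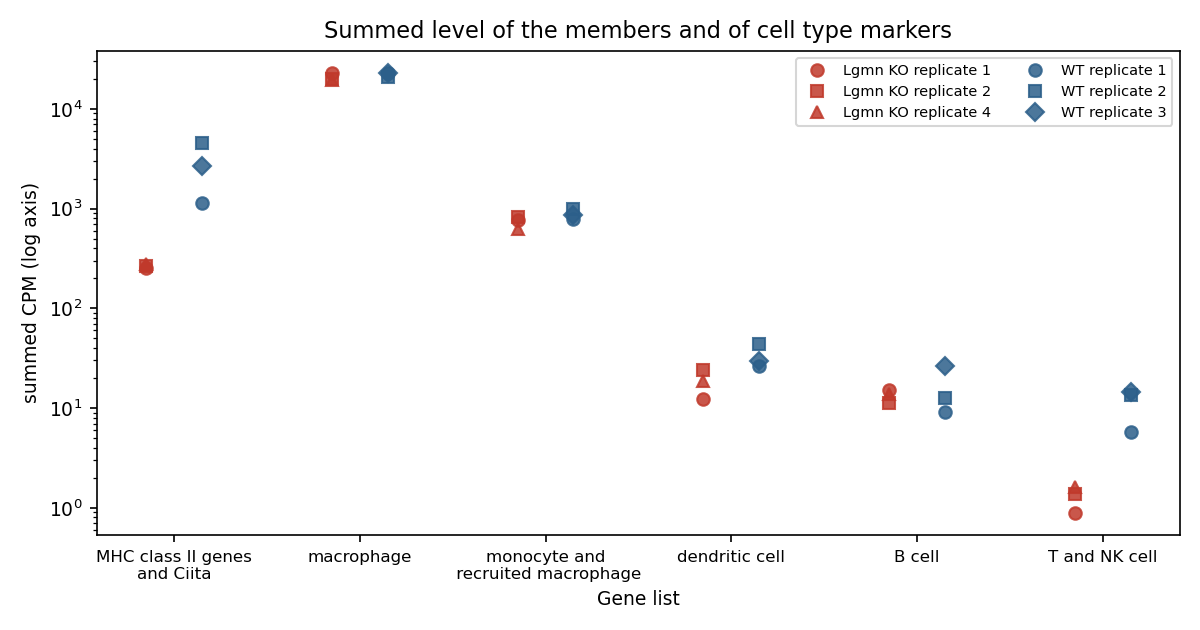
Summed CPM (log axis) of the 10 class II genes and of 5 lists of cell type markers in each Lgmn KO (red) and WT (blue) library. Class II, dendritic cell and T and NK cell sums are lower in all knockout libraries, whereas macrophage, monocyte and B cell sums overlap between the groups. The dendritic cell sum is 61.3% Fscn1.

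In the authors' deposited table, all of the 10 genes but H2-Ob have a negative log2 fold change, and H2-Ob has one of 0.117. These are also the directions of the mean levels here. That table marks 7 as lower in the knockouts, which are H2-Aa, H2-Ab1, H2-Eb1, H2-DMa, H2-DMb1, Cd74 and Ciita. Its log2 fold change for Ciita is -4.00, with a q-value of 2.84e-12. H2-DMb2 and H2-Oa have q-values of 0.0942 and 0.0797 in the authors' deposited table and are not marked. The test behind these q-values is not stated in the labels or the table.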

How the data were processed

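One table of 6 libraries was used, with columns matched to samples by title. Per the file headers, the authors deposited a count and an FPKM value per gene and library, group means of FPKM, a log2 fold change, a p-value and a q-value. Aligners named without roles in the submitters' processing notes are TopHat, TopHat2 2.0.9 and HISAT2, beside a human build. Positions are those of mouse and are given as in the table, and strands and exon overlaps come from GENCODE M21 (GRCm38). The deposited FPKM equal count over length and total in 100% of 9082 genes (minimum of 100 counts per library), within 0.5 bases of implied length, and were used to compare levels between genes.

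Counts were filtered (filterByExpr), scaled (TMM) and tested with edgeR 4.0.16 in R 4.3.3 (quasi-likelihood, no covariate, Benjamini-Hochberg over 12546 genes, threshold 0.05). Standard errors come from the F statistic. The procedure was tested on simulated data. Ratios were compared with exact permutation tests in scipy 1.17.1. Alternatives were DESeq2 1.42.0, its size factors in edgeR, no filter, limma 3.58.1 voom with sample quality weights, a replicate block, a threshold of 0.1 and leaving out each library. Named were the 10 genes, Lgmn, called or the 2 most abundant genes of each list, called or the most abundant markers, and the 5 genes most alike with at least 5 CPM. Members, lists and this rule were chosen with earlier results of these data known. March1 and March8 were matched by gene ID, other genes by symbol, and H2-Ea was not analysed here. Values of some listed genes are not reported here.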

Additional observations from a re-analysis of the deposited data

How the results depend on the processing

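The direction of all 8 tested class II genes held under all 11 alternative fits. The number called, 4 with edgeR, was 7 with DESeq2, 7 without the low-count filter and 7 at a threshold of 0.1, and 0 with a replicate block (7 at an unadjusted p below 0.05, lowest adjusted p 0.0564), against 0.239% of all genes called lower. The block also ended the calls of Ccl9, Cybb, Zbtb46 and Trac (adjusted p = 0.072, 0.189, 0.236 and 0.180). The fits that leave out 1 library called 0 to 7. Over all genes the count of 99 became 782 with DESeq2, 318 without the filter, 340 by limma-voom with sample quality weights, 39 with a replicate block and 503 at a threshold of 0.1. It ran from 6 to 639 when 1 library was left out. The cause of these shifts was not tested. The block rests on replicate numbers 1 and 2, which both groups share and which the labels do not say pair samples. Deviations of same-numbered libraries correlated at 0.122 and 0.0757. Those of differently numbered libraries ran from -0.168 (Lgmn KO replicate 1 with WT replicate 2) to 0.114 (Lgmn KO replicate 4 with WT replicate 2). Sign changes were found for genes near 0 only. Jak1 ran from -0.0576 to 0.00497 when 1 library was left out, Tgfb1 from -0.00262 to 0.0517 and Ctsb from -0.0199 to 0.0510, and Ctsb was at -0.0425 with the replicate block. Depth limits H2-Oa and H2-Ob, whose intervals are wide, and H2-DMb2.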
